A study of Mus musculus with 12 samples.

Results

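The genes described here are 39 macrophage and myeloid genes, listed by symbol and matched by Entrez gene number to 39 of the 27179 genes in a table of raw counts from mouse hearts. All 39 passed the filter on low counts, which left 13626 genes to test. Pregnant mice breathed filtered air or diesel exhaust between embryonic days 0.5 and 17.5 of gestation, and the offspring were raised in filtered air. Surgery at 12 weeks was a sham procedure or transverse aortic constriction (TAC), which narrows the aorta to the width of a 27-gauge needle and so loads the left ventricle with pressure. Frozen hearts taken at 15 weeks gave total RNA. The 4 groups, filtered air sham, filtered air TAC, diesel exhaust sham and diesel exhaust TAC, hold 3 hearts each. The sources used here do not give strain, sex, litter or sequencing run, and the p-values measure the spread between these samples.

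Macrophages are the main immune cells of the healthy heart. Resident macrophages seed the tissue before and around birth, largely renew themselves by division, and are marked by Lyve1, Folr2, Timd4 and Mrc1. Monocytes that enter from the blood carry the chemokine receptor Ccr2, and some become macrophages that show peptides to T helper cells on MHC class II molecules. Pressure load is known to bring monocytes into the heart and to change the number and state of its macrophages. The libraries are of whole tissue, so fewer or more cells of a type and less or more RNA per cell cannot be told apart.

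The 39 genes were read by role. The resident markers are Lyve1, Folr2, Timd4 and Mrc1, the recruited marker is Ccr2, and the class II genes are H2-Aa, H2-Ab1, H2-Eb1 and Cd74. The other members were grouped as macrophage identity genes (Adgre1, Csf1r, Cx3cr1, Cd68 and Mpeg1), scavenging and tissue macrophage genes (Cd163, F13a1, Pf4, Ms4a7 and Mertk), lipid-associated macrophage genes (Trem2 and Gpnmb), pattern recognition receptors (Cd14, Tlr4 and Tlr2), and immunoreceptor signalling genes (Fcgr3, Fcer1g, Tyrobp, Plcg2 and Gpr65). Lysosomal genes (Lyz2, Ctss and Laptm5), leukocyte surface proteins (Ptprc, Itgam, Itgb2, Cd53 and Cd86) and transcription factors (Spi1 and Irf8) completed the list.

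Promoters of 4 members are shown because they carry, letter for letter, one of the 2 short motifs searched for. Sequences are from RefSeq, build GRCm38.p6, for 28 of the 39 members. Each run covers 150 bases before the transcription start and 30 bases from it, on the strand of the gene, 5′ to 3′, with the motif in capitals. In H2-Aa (chr17:34287794-34287973, minus strand) and H2-Eb1 (chr17:34305717-34305896, plus strand) the capitals mark CTGATTGG, a CCAAT box of the kind found in the Y box of class II promoters, which the factor NF-Y binds. In Cd53 (chr3:106790120-106790299, minus strand) and F13a1 (chr13:37049184-37049363, minus strand) they mark GAGGAAGT or its reverse complement, a form of the site of PU.1, the macrophage factor encoded by Spi1.
H2-Aa: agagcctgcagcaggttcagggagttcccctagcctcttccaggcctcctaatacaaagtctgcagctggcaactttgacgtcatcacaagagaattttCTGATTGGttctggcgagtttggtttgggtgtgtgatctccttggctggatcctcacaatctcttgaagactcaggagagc
H2-Eb1: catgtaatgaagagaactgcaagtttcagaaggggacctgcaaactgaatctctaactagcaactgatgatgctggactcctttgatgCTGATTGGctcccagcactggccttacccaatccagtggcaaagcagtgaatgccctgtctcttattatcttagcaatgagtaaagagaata
Cd53: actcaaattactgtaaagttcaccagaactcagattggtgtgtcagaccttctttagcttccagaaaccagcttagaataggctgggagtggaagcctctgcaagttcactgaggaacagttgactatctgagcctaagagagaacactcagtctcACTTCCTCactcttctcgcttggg
F13a1: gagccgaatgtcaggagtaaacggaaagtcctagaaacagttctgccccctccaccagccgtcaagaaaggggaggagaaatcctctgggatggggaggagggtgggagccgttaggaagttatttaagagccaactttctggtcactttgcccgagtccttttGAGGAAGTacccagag

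Both motifs were searched on both strands of the 300-base windows in the RefSeq table, which run from 250 bases before each start to 50 bases after it. CTGATTGG was in the windows of 3 members, H2-Aa, H2-Eb1 and Irf8, of the 28 with a window, and in those of 4.70% of all 27025 genes. It began 51 bases before the start of H2-Aa and 62 bases before that of H2-Eb1. GAGGAAGT was in the windows of 4 members, F13a1, Pf4, Ctss and Cd53, and in those of 3.69% of all genes. A match describes the letters and says nothing of binding in these hearts.

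Library totals ran from 5534685 to 13265816 counts. The surgery labels were checked on Nppa, Nppb, Myh7 and Postn, all of which rose after TAC in the average over exposure (log2 fold changes from 1.26 for Myh7 to 3.84 for Nppa). Of the libraries, replicate 2 of the diesel exhaust sham group stood apart: it had the lowest total and 18.3% of its counts in mitochondrially encoded genes, against 25.1% to 32.4% in the others. It was the highest of its group for 30 of the 39 genes and the highest of all 6 sham libraries for 21. Replicate 2 of the filtered air TAC group was the highest of its group for 29 genes and of all 6 TAC libraries for 19. That library also had the lowest summed level of 9 ventricular cardiomyocyte genes of the 12, 76038 CPM (the count relative to the scaled size of its library) against 123554 and 102871 in the others of its group, and the highest sum of 8 fibroblast genes in its group, 2236 CPM against 1383 and 1201. In diesel exhaust sham replicate 2 the cardiomyocyte sum was 103853 CPM, against 138957 and 121573 in the others of its group. Its fibroblast sum was 770 CPM, against 715 and 673. In the filtered air sham libraries these sums ran from 105513 to 140290 and from 739 to 778 CPM. The part of these cells in the levels of the 39 genes in either library was not tested. Calls among the 39 genes that were gained or lost without either library are given with and without it. Genes of other lists are given with all 12 libraries only.

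**Figure D1:**
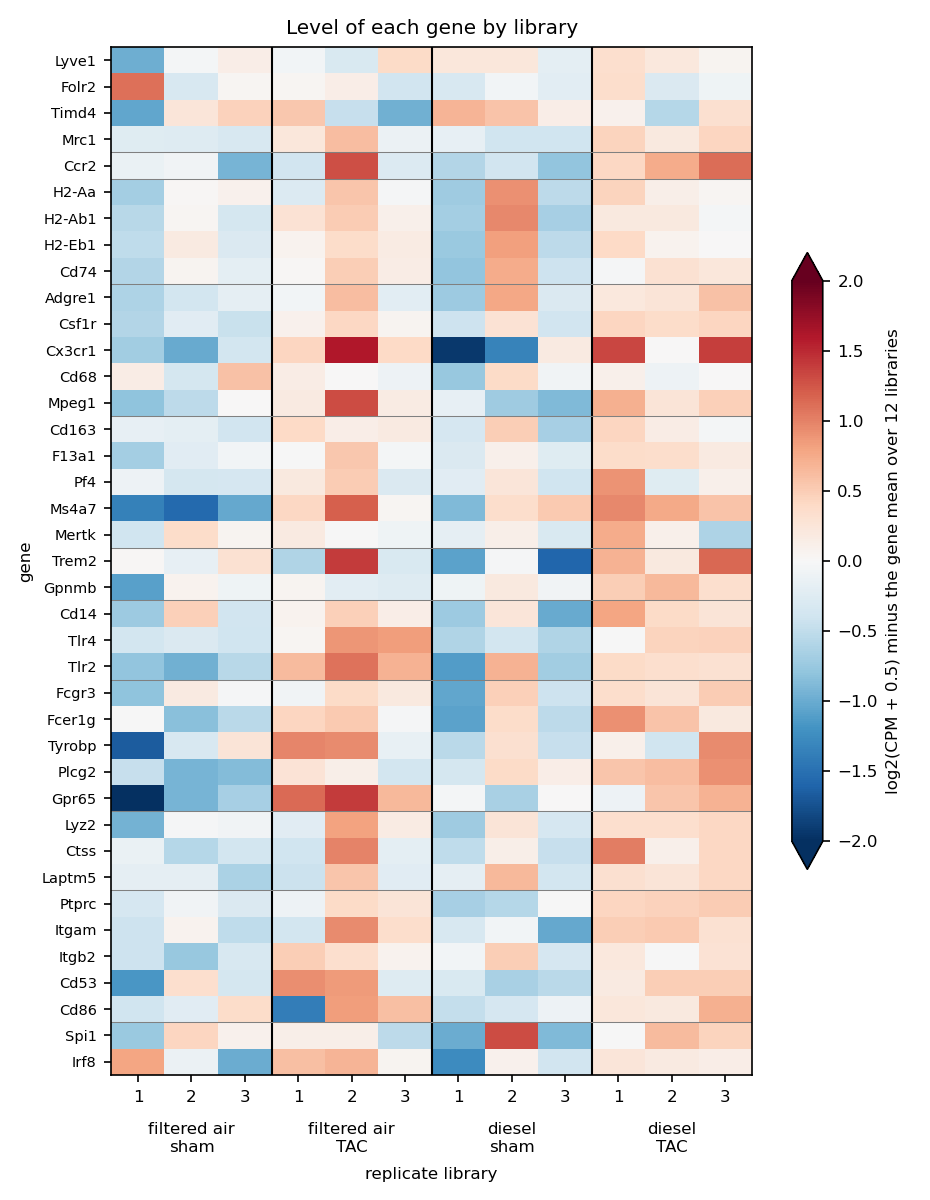
Level of each of the 39 genes in each library, as log2(CPM + 0.5), where CPM is the count relative to the scaled size of its library, minus the mean of that gene over the 12 libraries (red higher, blue lower). Columns are the 12 libraries in their 4 groups and rows are genes by role. Replicate 2 of the diesel exhaust sham group and replicate 2 of the filtered air TAC group are the reddest columns of their groups.

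Levels per kilobase of exon (RPKM, computed here from the counts) describe the genes against each other in the filtered air sham hearts. Lyz2, the lysozyme of macrophages and other myeloid cells, was highest at 63.2 ± 20.2 RPKM (SD, n = 3), followed by Cd74, the invariant chain that chaperones class II molecules, at 37.9 ± 8.26. Their libraries overlapped. Pf4, a platelet chemokine that cardiac macrophages also make, stood below Cd74 without overlap at 13.1 ± 1.38 RPKM. H2-Eb1 at 12.1 ± 3.07, Ctss at 9.23 ± 1.44 and H2-Ab1 at 9.15 ± 2.004 RPKM came next, and each overlapped the next gene in the order. Mrc1 at 6.72 ± 0.19, H2-Aa at 6.42 ± 1.76 and Csf1r at 6.35 ± 0.80 RPKM were 9th, 11th and 12th of the 39 genes. Ccr2 was at 0.44 ± 0.15 RPKM, and the lowest were Gpr65 at 0.23 ± 0.20, Gpnmb at 0.14 ± 0.08 and Ms4a7 at 0.10 ± 0.04. Further down the order than Cd74, 1 pair of neighbours did not overlap, Cd163 at 4.91 ± 0.38 and Tlr4 at 4.23 ± 0.16 RPKM.

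TAC against sham, averaged over exposure with 6 hearts a side, asked how pressure load changed these genes. Of the 39 genes, 14 rose and 0 fell at an adjusted p under 0.05 (edgeR quasi-likelihood test, Benjamini-Hochberg over all genes), which is 35.9% higher where 4.1% of all genes tested were called higher and 3.91% lower (8.01% in either direction). The members were chosen with earlier results of these data known, so these shares describe the list and are not independent of its choice. The 14 were Mrc1, Ccr2, Csf1r, Cx3cr1, Mpeg1, F13a1, Ms4a7, Tlr4, Tlr2, Plcg2, Gpr65, Ptprc, Itgam and Cd53. Of these, Ms4a7 and Gpr65 passed the filter on low counts only through the TAC hearts, where they are higher. Both were also called with no filter. The median log2 fold change was 0.58 over the 39 genes and 0.00 over all genes, and 36 of the 39 estimates were above 0. Summed over the 39 genes, the level in CPM was 488, 636 and 601 in the filtered air sham hearts and 732, 1062 and 748 in the filtered air TAC hearts. The diesel exhaust hearts gave 493, 888 and 527 CPM in sham and 912, 847 and 879 in TAC. Replicate 2 of the diesel exhaust sham group reached the TAC range, and the other 5 sham hearts lay below all 6 TAC hearts. In 3 genes, Mrc1, Mpeg1 and Tlr4, all 6 TAC hearts lay above all 6 sham hearts, which held for 2.19% of all genes.

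Single libraries moved the count. Without replicate 2 of the filtered air TAC group 6 genes were called, Mrc1, Csf1r, Cx3cr1, Mpeg1, Tlr4 and Plcg2, with 2.47% of all genes called higher in that fit. Without replicate 2 of the diesel exhaust sham group 22 genes were called, where 4.24% of all genes were called higher. That fit shared 12 genes with the 14, added 10 and lost Ptprc and Cd53. The count was 9 without replicate 1 or 3 of the diesel exhaust sham group or replicate 2 or 3 of the diesel exhaust TAC group. In that order, 428 of 14067, 448 of 14079, 422 of 13986 and 392 of 14018 of all genes were called higher. With all 12 libraries it was 558 of 13626. The 6 genes called without the filtered air TAC library were called in each of the 12 fits that leave out 1 library and in each of the 8 other alternatives run.

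**Figure D2:**
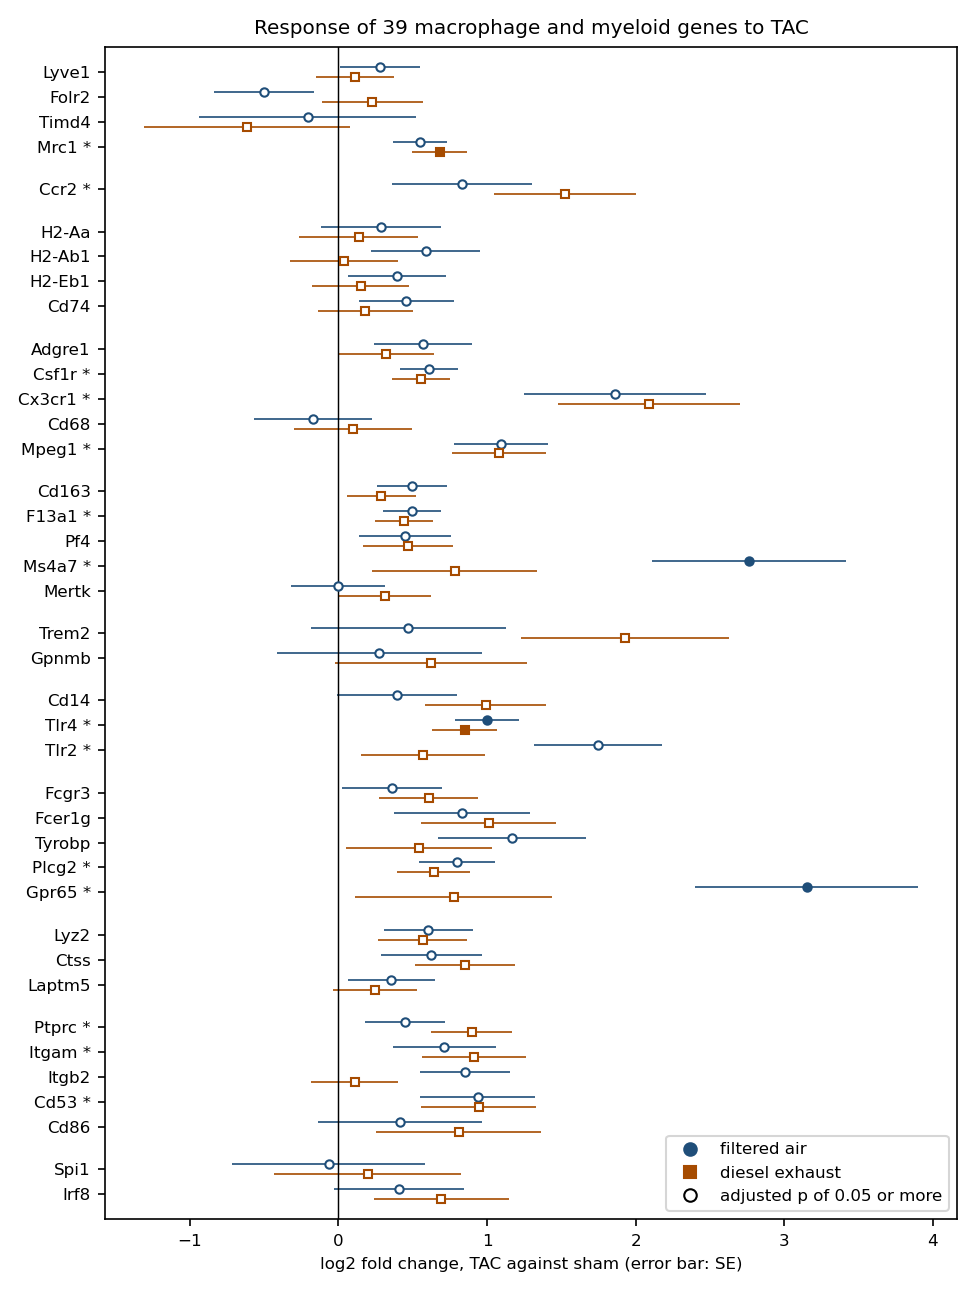
Log2 fold change of TAC against sham for the 39 genes in filtered air (circles) and after diesel exhaust (squares), 3 hearts a side. Genes are in the order of the roles, with bars of 1 SE from the edgeR fit of all 12 libraries. Filled symbols passed an adjusted p of 0.05 in that exposure and a star marks the 14 genes called in the average over exposure. Estimates lie right of 0 for 34 genes in filtered air and 38 after diesel exhaust.

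Among the 4 resident markers, 1 rose and 3 did not pass the test. Mrc1, the mannose receptor, which takes up glycoproteins, was at 43.8, 43.3 and 41.5 CPM in the filtered air sham hearts and 60.8, 79.6 and 47.7 in the filtered air TAC hearts. Diesel exhaust hearts had 46.3, 39.2 and 39.3 CPM in sham and 70.8, 59.2 and 70.1 in TAC. All 6 TAC hearts lay above all 6 sham hearts, and the increase averaged over exposure was 0.62 ± 0.13 on the log2 scale (SE), with an adjusted p of 0.00457.

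Lyve1, a hyaluronan receptor that lymphatic endothelium also carries, was at 8.88, 17.4 and 19.6 CPM in filtered air sham hearts and 17.2, 14.4 and 23.6 in filtered air TAC hearts. In diesel exhaust sham hearts it was at 21.04, 21.2 and 15.6 CPM and in diesel exhaust TAC hearts at 22.8, 20.8 and 18.7. The groups overlapped, with a log2 fold change of 0.19 ± 0.19 (95% interval -0.20 to 0.59). Of 6 lymphatic endothelium genes 1 was called, Prox1, which fell by 0.75 ± 0.17 on the log2 scale and is also made by cardiomyocytes. The part of lymphatic vessels in Lyve1 was not tested.

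Folr2, a folate receptor, was at 19.4, 6.89 and 8.91 CPM in filtered air sham and 8.92, 9.63 and 6.56 in filtered air TAC hearts. It was at 6.89, 8.34 and 7.49 CPM in diesel exhaust sham and 11.3, 7.01 and 8.14 in diesel exhaust TAC hearts. One filtered air sham heart, replicate 1, was the highest of all 12, and the other 11 lay between 6.56 and 11.3 CPM. The log2 fold change averaged over exposure was -0.14 ± 0.24 (95% interval -0.63 to 0.36), and 0.15 without that heart.

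Timd4, a receptor for phosphatidylserine on dying cells, was at 0.42, 1.76 and 2.11 CPM in filtered air sham and 2.26, 0.88 and 0.48 in filtered air TAC hearts. After diesel exhaust its level was 2.55, 2.34 and 1.59 CPM in sham and 1.52, 0.78 and 1.89 in TAC. These values lie near the floor that 3 counts set, 0.217 to 0.501 CPM by library, and the estimate of -0.41 ± 0.50 had a 95% interval from -1.46 to 0.63.

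Ccr2, the receptor through which monocytes leave the marrow for tissue, was at 3.49, 3.67 and 1.78 CPM in filtered air sham hearts and 2.85, 10.1 and 3.10 in filtered air TAC hearts. After diesel exhaust it was at 2.42, 2.84 and 2.02 CPM in sham and 5.29, 6.79 and 8.94 in TAC. In filtered air only replicate 2 of the TAC group lay above the sham hearts, while after diesel exhaust all 3 TAC hearts did. Averaged over exposure Ccr2 rose by 1.18 ± 0.34 on the log2 scale (adjusted p = 0.0325), and without that filtered air TAC library the value was 0.76 ± 0.31 with an adjusted p of 0.201. The call was also lost without replicate 3 of the filtered air sham group, replicate 1 or 3 of the diesel exhaust sham group or replicate 2 or 3 of the diesel exhaust TAC group.

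The 4 class II genes did not pass the test in any comparison of all 12 libraries. H2-Aa, the alpha chain of I-A, was at 16.7, 27.6 and 28.8 CPM in filtered air sham and 22.4, 39.9 and 26.6 in filtered air TAC hearts. In diesel exhaust sham hearts it was at 16.3, 51.7 and 18.7 CPM and in diesel exhaust TAC hearts at 37.2, 29.5 and 27.9. Replicate 2 of the diesel exhaust sham group was the highest of all 12 hearts, while the other 2 of its group lay below all 3 diesel exhaust TAC hearts.

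The other class II genes were also highest in that diesel exhaust sham library. H2-Ab1, the beta chain of I-A, was at 19.1, 29.2 and 22.2 CPM in filtered air sham, 34.9, 40.5 and 30.4 in filtered air TAC, 17.6, 55.6 and 17.7 in diesel exhaust sham and 32.6, 32.6 and 27.6 in diesel exhaust TAC hearts. H2-Eb1, the beta chain of I-E, was at 18.5, 30.1 and 21.7 CPM in filtered air sham, 28.1, 34.4 and 29.7 in filtered air TAC, 15.7, 47.4 and 18.4 in diesel exhaust sham and 35.1, 27.8 and 26.8 in diesel exhaust TAC hearts. Cd74 was at 49.2, 76.8 and 64.8 CPM in filtered air sham, 75.4, 104 and 82.1 in filtered air TAC, 42.7, 124 and 55.6 in diesel exhaust sham and 73.1, 92.0 and 86.6 in diesel exhaust TAC hearts. In all 3 genes the same diesel exhaust sham library, replicate 2, was the highest of the 12, and the other 2 of its group were below every TAC heart. Of the 4 genes, H2-Ab1 alone had filtered air TAC hearts that all lay above the filtered air sham hearts.

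Averaged over exposure, the log2 fold changes of TAC against sham were 0.21 ± 0.28 for H2-Aa, 0.31 ± 0.26 for H2-Ab1, 0.27 ± 0.23 for H2-Eb1 and 0.32 ± 0.23 for Cd74, with adjusted p from 0.470 to 0.741. Without replicate 2 of the diesel exhaust sham group they were 0.57 ± 0.18 (adjusted p = 0.0598), 0.70 ± 0.15 (0.00535), 0.60 ± 0.16 (0.0202) and 0.61 ± 0.14 (0.0107) in the same order. With that library left out 3 of the 4 passed the test, and with it 0 did. That library had the lowest mitochondrial share, 18.3%, and the highest sum of the 4 class II genes, 279 CPM. Filtered air TAC replicate 2 came next in that sum, at 219 CPM, with a mitochondrial share of 30.7%. Diesel exhaust sham replicate 1 had the lowest sum, 92.3 CPM, with a share of 25.7%. The part of the mitochondrial share in the class II level was not tested.

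**Figure D3:**
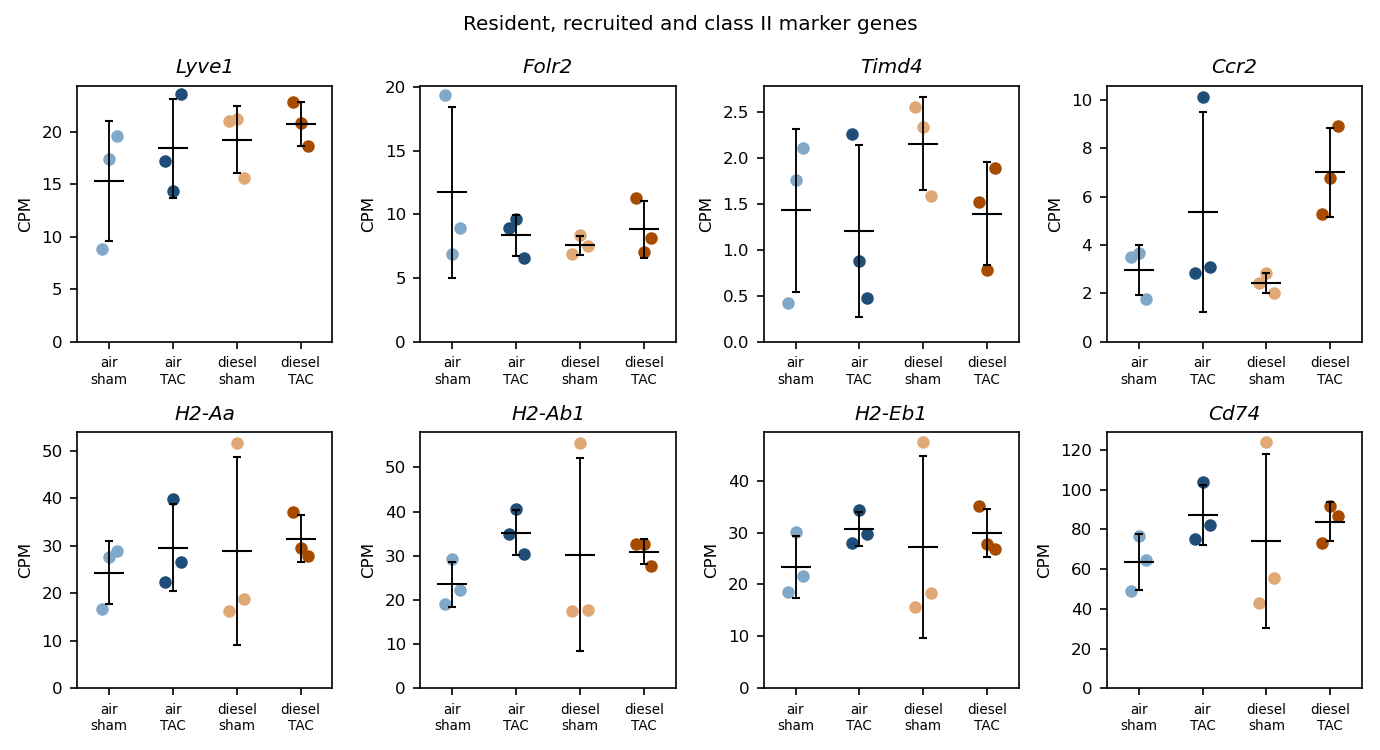
CPM in each library (points) with the group mean and SD (bars, n = 3) for the resident markers Lyve1, Folr2 and Timd4, the recruited marker Ccr2 and the 4 class II genes. Diesel exhaust sham replicate 2 is the isolated high point of each class II panel, at 51.7 CPM for H2-Aa and 124 CPM for Cd74.

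Macrophage identity genes gave 3 calls of 5, Csf1r, Cx3cr1 and Mpeg1. Csf1r, the receptor for the growth factor that keeps macrophages alive, was at 32.5, 41.6 and 36.0 CPM in filtered air sham and 52.0, 65.3 and 50.7 in filtered air TAC hearts. It was at 36.5, 59.7 and 37.3 CPM in diesel exhaust sham and 66.4, 63.2 and 65.8 in diesel exhaust TAC hearts. TAC and sham did not overlap within either exposure, and the rise was 0.58 ± 0.14 (log2, adjusted p = 0.0106).

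Mpeg1, which makes the pore protein perforin-2 of phagocytes, was at 7.93, 9.82 and 14.4 CPM in filtered air sham and 16.3, 35.9 and 16.0 in filtered air TAC hearts. After diesel exhaust it was at 12.6, 8.51 and 7.49 CPM in sham and 23.7, 17.1 and 20.0 in TAC. The 6 TAC hearts lay above the 6 sham hearts, and Mpeg1 rose by 1.09 ± 0.22 (log2, adjusted p = 0.00389), with 0.84 ± 0.20 when filtered air TAC replicate 2 was left out.

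Cx3cr1, the fractalkine receptor of monocytes and macrophages, was at 1.59, 1.17 and 2.11 CPM in filtered air sham and 4.04, 9.76 and 3.94 in filtered air TAC hearts. It was at 0.38, 0.83 and 3.31 CPM in diesel exhaust sham and 8.04, 2.89 and 8.34 in diesel exhaust TAC hearts. It had the largest log2 fold change of the 39 genes in this comparison, 1.98 ± 0.43 (adjusted p = 0.00697), from sham levels near the floor. Adgre1, which encodes F4/80, and Cd68, a lysosomal glycoprotein, did not pass the test, with 0.45 ± 0.23 and -0.04 ± 0.28. Without the diesel exhaust sham library that stood apart, Adgre1 had 0.73 ± 0.20 with an adjusted p of 0.0259.

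Pattern recognition receptors gave 2 calls of 3. Tlr4, the receptor for lipopolysaccharide and for some products of damaged tissue, was at 23.2, 24.5 and 22.8 CPM in filtered air sham and 31.0, 56.1 and 54.1 in filtered air TAC hearts. After diesel exhaust it was at 19.6, 23.2 and 19.7 CPM in sham and 29.99, 41.3 and 41.5 in TAC. All TAC hearts lay above all sham hearts, and Tlr4 had the smallest adjusted p of the 39 genes, 0.000541, at 0.93 ± 0.15 (log2).

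Tlr2, the receptor for bacterial lipoproteins, was at 2.54, 2.20 and 3.08 CPM in filtered air sham and 7.61, 10.6 and 7.99 in filtered air TAC hearts. Its level was 1.91, 8.01 and 2.74 CPM in diesel exhaust sham and 6.37, 6.12 and 5.96 in diesel exhaust TAC hearts. It rose by 1.16 ± 0.30 averaged over exposure (log2, adjusted p = 0.0187). The call was lost without filtered air TAC replicate 2 (adjusted p = 0.0654) or diesel exhaust sham replicate 3. Cd14, the co-receptor of Tlr4, did not pass with 0.69 ± 0.29 (adjusted p = 0.155), and did without diesel exhaust sham replicate 2 (0.95 ± 0.28, adjusted p = 0.0423).

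**Figure D4:**
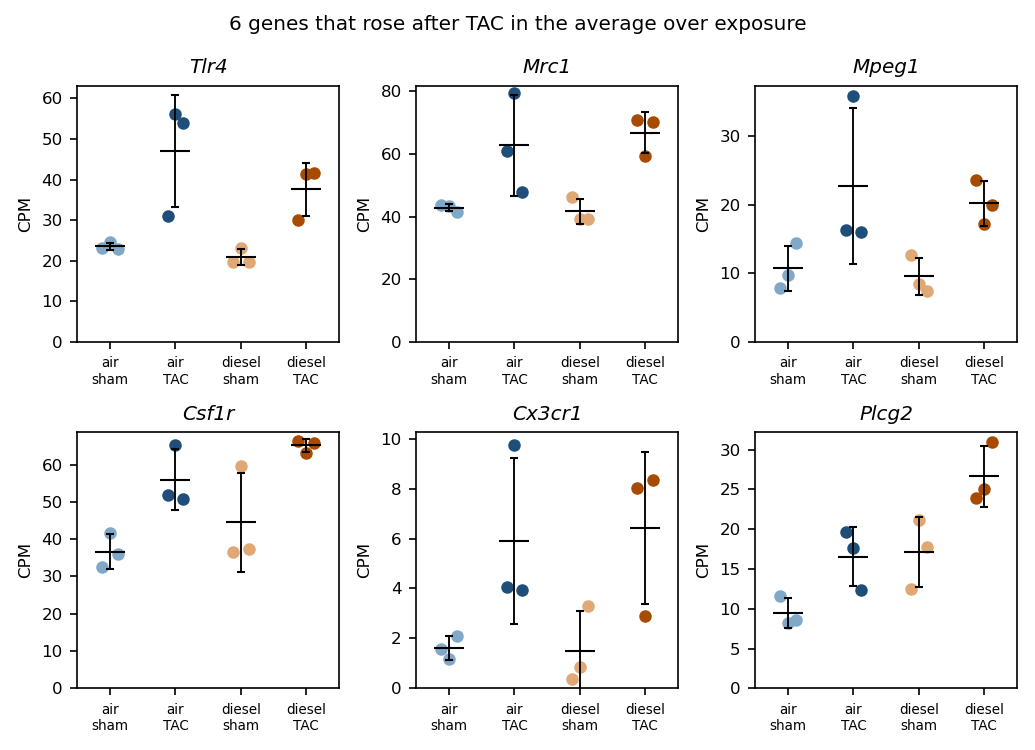
CPM in each library (points) with the group mean and SD (bars, n = 3) for the 6 genes that were called in the average over exposure in every fit run. For Tlr4, Mrc1 and Mpeg1 all 6 TAC hearts lie above all 6 sham hearts.

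Of the 5 scavenging and tissue macrophage genes, F13a1 and Ms4a7 rose. F13a1, the coagulation factor XIII A subunit that macrophages make, was at 38.2, 52.5 and 58.7 CPM in filtered air sham and 60.9, 89.5 and 59.8 in filtered air TAC hearts. It was at 49.9, 65.9 and 51.6 CPM in diesel exhaust sham and 79.2, 77.9 and 69.6 in diesel exhaust TAC hearts. Within each exposure the TAC hearts lay above the sham hearts, by 0.47 ± 0.14 on the log2 scale in the average (adjusted p = 0.0409). That call was kept in 4 of the 12 fits that leave out 1 library and was lost without any of filtered air sham 1 or 2, filtered air TAC 2, diesel exhaust sham 1 or 3 and diesel exhaust TAC 1, 2 or 3, where the adjusted p reached 0.148.

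Ms4a7, a membrane protein of mature macrophages, was at 0.42, 0.29 and 0.65 CPM in filtered air sham and 2.62, 4.88 and 1.91 in filtered air TAC hearts. It was at 0.77, 2.503 and 2.88 CPM in diesel exhaust sham and 4.06, 3.45 and 2.98 in diesel exhaust TAC hearts. The filtered air sham hearts were the lowest 3 of the 12, at or near the floor. The rise averaged over exposure was 1.77 ± 0.43 (log2, adjusted p = 0.0123), and without filtered air TAC replicate 2 it was 1.54 ± 0.45 with an adjusted p of 0.0577. Cd163, the hemoglobin scavenger receptor, Pf4, and Mertk, a receptor for the clearance of dead cells, did not pass, with 0.39 ± 0.17, 0.46 ± 0.22 and 0.15 ± 0.22. Without diesel exhaust sham replicate 2, Cd163 had 0.60 ± 0.14 (adjusted p = 0.0104).

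Immunoreceptor signalling genes gave 2 calls of 5. Plcg2, a phospholipase downstream of Fc and Trem receptors, was at 11.6, 8.21 and 8.59 CPM in filtered air sham and 19.6, 17.6 and 12.4 in filtered air TAC hearts. After diesel exhaust it was at 12.5, 21.2 and 17.7 CPM in sham and 23.9, 25.1 and 31.0 in TAC. All TAC hearts lay above all sham hearts within each exposure. The rise after TAC was 0.72 ± 0.18 (log2, adjusted p = 0.0136).

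Gpr65, a receptor that senses acid outside the cell, had no count in 1 filtered air sham heart, where 3 counts would be 0.317 CPM, and was at 0.59 and 0.81 CPM in the other 2. In filtered air TAC hearts it was at 4.04, 5.01 and 2.74 CPM, in diesel exhaust sham hearts at 1.53, 0.83 and 1.59 and in diesel exhaust TAC hearts at 1.45, 2.56 and 2.88. Averaged over exposure it rose by 1.96 ± 0.50 (log2, adjusted p = 0.0169), and without filtered air TAC replicate 2 the adjusted p was 0.0604. The Fc receptor Fcgr3, its partner chain Fcer1g, and Tyrobp, the adaptor of Trem2, had 0.49 ± 0.24, 0.92 ± 0.32 and 0.86 ± 0.35 and did not pass. Fcgr3 and Fcer1g passed without diesel exhaust sham replicate 2, with 0.75 ± 0.22 (adjusted p = 0.0394) and 1.21 ± 0.32 (adjusted p = 0.0235). The related receptor genes Fcgr2b and Fcgr4 had means of 8.72 and 0.84 CPM.

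Leukocyte surface genes gave 3 calls of 5. Ptprc, which encodes CD45 of all white blood cells, was at 7.40, 8.94 and 7.62 CPM in filtered air sham, 8.80, 12.5 and 11.3 in filtered air TAC, 5.74, 6.17 and 9.37 in diesel exhaust sham and 12.9, 13.1 and 13.6 in diesel exhaust TAC hearts. Itgam, the CD11b integrin chain, was at 5.71, 8.21 and 5.35 CPM in filtered air sham, 5.95, 15.5 and 10.1 in filtered air TAC, 6.12, 7.51 and 3.60 in diesel exhaust sham and 11.2, 11.5 and 9.73 in diesel exhaust TAC hearts. Cd53, a tetraspanin of white blood cells, was at 2.64, 8.36 and 5.02 CPM in filtered air sham, 12.8, 12.1 and 5.37 in filtered air TAC, 5.23, 4.00 and 4.32 in diesel exhaust sham and 7.46, 9.35 and 9.43 in diesel exhaust TAC hearts. In all 3 genes the groups overlapped in filtered air and did not after diesel exhaust.

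The rises averaged over exposure were 0.67 ± 0.19 for Ptprc, 0.81 ± 0.25 for Itgam and 0.94 ± 0.27 for Cd53 (log2, adjusted p = 0.0325, 0.0437 and 0.0369). Each of these calls was kept in 3 of the 12 fits that leave out 1 library. They were lost without filtered air sham 1 or 3, filtered air TAC 2, diesel exhaust sham 1 or diesel exhaust TAC 2 or 3, and the adjusted p without filtered air TAC 2 was 0.101, 0.189 and 0.112. Ptprc was lost also without filtered air TAC 3, diesel exhaust sham 2 or diesel exhaust TAC 1, Itgam without filtered air TAC 3, diesel exhaust sham 3 or diesel exhaust TAC 1, and Cd53 without filtered air TAC 1 or diesel exhaust sham 2 or 3. Itgb2, the partner chain of Itgam, and Cd86, a costimulatory ligand, did not pass, with 0.48 ± 0.21 and 0.61 ± 0.39.

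None of the 3 lysosomal genes, the 2 lipid-associated genes or the 2 transcription factors passed the test in the average. Lyz2 ran from 52.4 to 122 CPM in sham and from 87.1 to 178 in TAC hearts, with 0.59 ± 0.21 on the log2 scale (adjusted p = 0.115). Ctss, the cathepsin that trims the invariant chain, had 0.74 ± 0.24 (adjusted p = 0.0676), and Laptm5, a lysosomal membrane protein of blood cells, 0.30 ± 0.20. Lyz2 and Ctss passed without diesel exhaust sham replicate 2, with 0.74 ± 0.20 (adjusted p = 0.0328) and 0.86 ± 0.25 (adjusted p = 0.0482), and both passed also without filtered air TAC replicate 1. Ctss passed without filtered air TAC replicate 3 as well. Lyz1, the near copy of Lyz2, had a mean of 1.26 CPM.

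Trem2, a lipid receptor of macrophages that take up debris, had 1.20 ± 0.48 (adjusted p = 0.140), and Gpnmb, a glycoprotein of lipid-laden macrophages, 0.45 ± 0.47. Spi1 and Irf8, which set myeloid fate, had 0.07 ± 0.45 and 0.55 ± 0.32. Trem2 was at most 5.76 CPM and Gpnmb at most 2.23 CPM in any heart. Trem2 had 1.65 ± 0.51 (adjusted p = 0.0526) without diesel exhaust sham replicate 2 and 0.64 ± 0.48 without filtered air TAC replicate 2. Spi1 was at 0.89, 6.34 and 1.01 CPM in the diesel exhaust sham hearts, the high value again being replicate 2. Without that library Spi1 had 0.81 ± 0.42 (adjusted p = 0.269) and Irf8 0.74 ± 0.33 (adjusted p = 0.193).

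TAC against sham within filtered air, 3 hearts against 3, called 3 of the 39 genes higher and 0 lower, where 0.829% of all genes were called (0.609% higher and 0.22% lower). They were Tlr4, with 1.00 ± 0.22 (log2, edgeR adjusted p = 0.025), Ms4a7, with 2.76 ± 0.65 (adjusted p = 0.0451), and Gpr65, with 3.15 ± 0.75 (adjusted p = 0.0473). The last 2 start from filtered air sham levels at or near the floor. They passed the filter on low counts only through the TAC hearts, where they are higher, and were also called with no filter. TAC hearts lay above sham hearts without overlap for 13 of the 39 genes, against 8.2% of all genes, and below them for 0, against 7.57%, and the median log2 fold change was 0.50. None of the 3 calls held without filtered air TAC replicate 2, where the adjusted p was 0.207, 0.300 and 0.261. Each was also lost without any 1 of the filtered air sham libraries. Tlr4 was lost without filtered air TAC 3, Ms4a7 without filtered air TAC 1, and Gpr65 without either. Ms4a7 and Gpr65 were lost as well without diesel exhaust sham 3 or any of the diesel exhaust TAC libraries. Tlr2 passed without diesel exhaust sham 1 or 2.

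TAC against sham within diesel exhaust called 2 of the 39 genes higher and 0 lower, where 3.24% of all genes were called (1.75% higher and 1.49% lower). Mrc1 had 0.68 ± 0.18 (log2, edgeR adjusted p = 0.0442) and Tlr4 0.85 ± 0.22 (adjusted p = 0.0316). For 17 of the 39 genes all 3 TAC hearts lay above all 3 sham hearts, against 11.1% of all genes, and for 0 they lay below, against 11.2%, and the median log2 fold change was 0.57. These 17 included Ccr2, Trem2, Gpnmb, Cd14, Lyz2, Ptprc, Itgam, Cd53, Cd86 and Irf8, which overlapped in filtered air. The other way, H2-Ab1, Cx3cr1, Cd163, Tlr2, Gpr65 and Itgb2 did not overlap in filtered air and overlapped after diesel exhaust. Whether a response differed between exposures is tested by the interaction. The Tlr4 call was lost without diesel exhaust sham 1 or 3 or diesel exhaust TAC 2 or 3. The Mrc1 call was lost without any 1 of the 6 diesel exhaust libraries or filtered air sham 2 or 3, with adjusted p up to 0.163. Csf1r passed without diesel exhaust sham 2, Cx3cr1 without diesel exhaust sham 3 or diesel exhaust TAC 2, and Ccr2 and Mpeg1 without filtered air TAC 2.

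Diesel exhaust against filtered air asked what the prenatal exposure alone left behind in the adult heart. None of the 39 genes passed the test in sham hearts, in TAC hearts or in the average over surgery, where 0% of all genes were called in each. At an unadjusted p under 0.05 there were 2, 1 and 2 of the 39 genes, against 3.69%, 1.87% and 3.32% of all genes. Those in sham were Ms4a7, with 2.14 ± 0.67 on the log2 scale, and Plcg2, with 0.84 ± 0.26, and both had an edgeR adjusted p of 0.996. Plcg2 was also the gene with the unadjusted p under 0.05 in TAC hearts, at 0.69 ± 0.24. Its 3 diesel exhaust hearts lay above its 3 filtered air hearts in each surgery. In sham hearts diesel exhaust lay above filtered air without overlap for 3 of the 39 genes, Ms4a7, Plcg2 and Gpr65, and below for 0, against 4% and 3.6% of all genes. In TAC hearts it lay above for 3, Gpnmb, Plcg2 and Ptprc, and below for 1, Tlr2, against 3.94% and 3.76% of all genes. Hearts of 1 group may share a litter, and p-values of exposure would then be too small.

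Class II genes after diesel exhaust in sham hearts turned on 1 library. With all 12 libraries the log2 fold changes against filtered air were 0.25 ± 0.41 for H2-Aa, 0.36 ± 0.37 for H2-Ab1, 0.21 ± 0.33 for H2-Eb1 and 0.22 ± 0.32 for Cd74. Without diesel exhaust sham replicate 2 they were -0.47 ± 0.27, -0.41 ± 0.22, -0.45 ± 0.24 and -0.37 ± 0.21, and none passed in either fit. The median over the 39 genes went from 0.16 to -0.16. Resident markers and Ccr2 did not pass, with -0.65 ± 0.34 for Folr2, 0.34 ± 0.27 for Lyve1, 0.63 ± 0.71 for Timd4, -0.04 ± 0.19 for Mrc1 and -0.31 ± 0.50 for Ccr2 in sham hearts. Without filtered air sham replicate 1, the high Folr2 library, Folr2 had -0.05.

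The exposure by surgery interaction asked whether the response to TAC differed after diesel exhaust. None of the 39 genes passed, and 0% of all genes were called (edgeR). At an unadjusted p under 0.05 there were 2 of the 39, against 2.4% of all genes. Gpr65 had -2.38 ± 1.00 and Ms4a7 -1.98 ± 0.86, both with an edgeR adjusted p of 1.00, the negative sign meaning a smaller response after diesel exhaust. Without filtered air TAC replicate 2 they had -2.16 ± 1.11 and -1.51 ± 0.90. Tlr2 had -1.18 ± 0.60, with a 95% interval from -2.42 to 0.06, and -0.34 ± 0.51 without diesel exhaust sham replicate 2. For Ccr2 the interaction was 0.70 ± 0.67 (95% interval -0.69 to 2.08), and without filtered air TAC replicate 2 it was 1.54 ± 0.63, with an edgeR adjusted p of 1.00. Mrc1 had 0.13 ± 0.26 (95% interval -0.41 to 0.67), and 0.34 ± 0.25 without that library. The median interaction of the 39 genes was -0.01 with all libraries, 0.26 without filtered air TAC replicate 2 and 0.27 without diesel exhaust sham replicate 2.

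Other genes of the macrophage pathway were read from lists fixed beside the members. For these lists and those of other cells, the share of all genes called in the average over exposure was 4.1% higher and 3.91% lower. Of 34 further macrophage genes tested, 2 rose and 0 fell, which is near that share. These were Fcrls, an Fc receptor-like gene, by 1.22 ± 0.25 (log2, edgeR adjusted p = 0.00365), and Stab1, a scavenger receptor, by 0.39 ± 0.12 (adjusted p = 0.0481). The 36 genes of this list, tested or not, summed to 484 to 527 CPM in filtered air sham, 580 to 770 in filtered air TAC, 459 to 821 in diesel exhaust sham and 736 to 908 in diesel exhaust TAC hearts. Of 9 monocyte-associated genes 5 rose, Fn1 by 1.75 ± 0.15, Vcan by 1.71 ± 0.20, Ace by 1.25 ± 0.15, S100a6 by 0.80 ± 0.15 and S100a4 by 1.25 ± 0.31. Fibronectin (Fn1) and versican (Vcan) are also matrix proteins of fibroblasts, and Ace is also made by endothelium.

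Of 16 growth factor and attractant genes tested, 1 rose, which was Csf1r itself. Its ligand Csf1 had -0.04 ± 0.14. Of 14 genes of the class II machinery 1 was called, Nfyc, a subunit of NF-Y, which fell by 0.50 ± 0.14 on the log2 scale (adjusted p = 0.0341). None of 16 myeloid signalling genes and none of 6 polarisation genes were called, with medians of 0.58 and 0.52.

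Markers of other cells were read beside these results. Of 8 fibroblast genes 5 rose in the average over exposure, among them Postn by 3.47 ± 0.24, and their summed level was 673 to 778 CPM over the sham hearts and 1201 to 2294 over the TAC hearts. Of 9 ventricular cardiomyocyte genes 4 fell, Tnni3, Myh6, Ryr2 and Tnnt2, by 0.57 to 0.74 on the log2 scale. None of 8 blood endothelium, 3 neutrophil, 3 dendritic cell, 3 mast cell, 2 platelet and 1 B cell genes tested were called, and none of the T and natural killer cell genes passed the filter. Neutrophil genes summed to 0.32 to 6.67 CPM, T and natural killer cell genes to 1.00 to 4.76 CPM, and thymus and lymph node genes to at most 2.13 CPM in any heart. The part of a changed share of cardiomyocyte or fibroblast RNA in the levels of the 39 genes was not tested.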

How the data were processed

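Total RNA of 12 frozen hearts was depleted of ribosomal RNA and sequenced on an Ion instrument with 4 samples per run, per the labels' protocols. Per the submitters' processing notes, the authors trimmed reads with cutadapt 1.6, aligned them to mm10 with Subread 1.4.2 and counted them with featureCounts. The authors deposited raw counts for each Entrez gene number. The sources used here do not state strand, multimapping or annotation, so reads of Csf1r, Cx3cr1, F13a1, Folr2 and Gpr65 may mix with an overlapping gene on the other strand, and those of Itgam and Cd74 with one on the same strand. Symbols were matched by gene number to RefSeq GRCm38.p6 for 25275 genes and to GENCODE M21 for 18, and 1886 genes had none.

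Counts were fitted in R 4.3.3 with edgeR 4.0.16: TMM, filterByExpr with a count minimum of 10, a robust quasi-likelihood fit of 4 group means to 12 libraries (8 residual degrees of freedom), and Benjamini-Hochberg adjustment over 13626 genes within each of 7 comparisons. The SE of a log2 fold change is its absolute value divided by the square root of the F statistic of that fit. CPM use TMM library sizes and exon lengths for RPKM come from GENCODE M21. A count of 3 was taken as the floor and covers counting error only. The fit was also run on simulated counts that hold no outlying library, and no result given here rests on that run. Values in every sample are given for members called in any comparison and for resident, recruited and class II members. From the other lists up to 4 genes with the smallest p among those called are named by rule. Csf1 and the fifth monocyte gene were added after their values were seen. The members, lists and rules were chosen with earlier results of these data known. The alternatives were other scalings, filters, DESeq2 1.42.0, limma 3.58.1 (voom), groups fitted alone and each library left out.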

Additional observations from a re-analysis of the deposited data

How the results depend on the processing

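Counts of the 39 genes called by surgery varied with the processing, and all calls in every alternative were in the higher direction. In filtered air the 3 calls became 5 with no filter on low counts and 1 without the robust option. They became 1 with the groups compared alone and 0 with limma voom. In that order, 159 of 20355, 74 of 13626, 64 of 12868 and 68 of 13626 of all genes tested were called higher. In the main edgeR fit 14 of the 39 genes had an unadjusted p under 0.05, against 11.1% of all genes. After diesel exhaust the 2 calls became 5 with no filter, 1 without the robust option, 4 with the groups alone, 1 with limma voom and 5 with DESeq2. All genes called higher were, in that order, 318 of 20355, 212 of 13626, 234 of 13105, 210 of 13626 and 331 of 14146. Leaving out 1 library in turn gave 0 to 4 in each exposure and 6 to 22 in the average, which without a library left out ranged from 12 to 16. With 1 library left out, all genes called higher ranged from 32 to 101 in filtered air and from 128 to 263 after diesel exhaust. In the average they ranged from 346 to 591, and from 522 to 666 without a library left out. Exposure and the interaction had 0 calls in every alternative run. The median of the 39 genes stayed between 0.47 and 0.73 in the average of TAC against sham, between 0.31 and 0.68 in filtered air and between 0.37 and 0.82 after diesel exhaust, and ran from -0.16 to 0.28 for exposure in sham hearts. No called gene changed sign. The cause of these shifts was not tested. No paired analysis was possible because the labels give no replicate number shared between groups. The levels of Timd4, Gpnmb, Trem2, Cx3cr1, Gpr65 and Ms4a7 reach or come near the floor of 3 counts in some libraries.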
